A study of Caenorhabditis elegans with 9 samples.

Results

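The 13 short DNA motifs described here are the 13 of 57 deposited motif blocks whose headers name a set of embryo intergenic DHS (9 motifs) or of embryo footprints (4 motifs). They are called here intergenic motifs 1 to 9 and footprint motifs 1 to 4, by their order in the deposited motif file. The study mapped DNase I hypersensitive sites (DHS) in the wild-type N2 strain of Caenorhabditis elegans at 2 stages, embryos of roughly 40 cells (4 biological replicates, A to D) and larvae in L1 arrest (5 biological replicates, V to Z). All libraries came from nuclei of whole animals of that strain, with no allele or transgene added, and no cell type was sorted. The authors deposited 1 merged list of DHS for each stage, so no value below carries a replicate error, and no comparison between the stages was tested over replicates.

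DNase I cuts chromatin where nucleosomes are displaced, and such sites mark promoters, enhancers and other regulatory DNA. A transcription factor bound inside an open site shields a few bases from the enzyme and leaves a footprint. Words that recur in open sites or footprints more often than in comparison sequences are candidate binding motifs, and in a whole embryo or larva they are pooled over all cell types. In such pooled nuclei, a site open in fewer cells and a site less open in each cell cannot be told apart.

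The motifs were short and nearly invariant. The intergenic motifs were 10 to 12 bp wide and the footprint motifs 8 or 9 bp. Intergenic motifs 1, 3 and 5 each consisted of 1 word, and each of the other 10 varied at 1 position only. Base composition varied between the sets. The median GC content was 33.3% over the 9 intergenic motifs and 67.5% over the 4 footprint motifs, beside 73.5% over the 5 promoter motifs, 59.4% over the 10 intron motifs and 60.1% over the 29 motifs of all noncoding DHS. Within the intergenic set the range was wide, from 5.91% in intergenic motif 9 to 75.7% in intergenic motif 7. Short words, looked for on both strands after the motifs had been seen, recurred among the motifs. TTCAAAA occurred in intergenic motifs 2, 8 and 9 and in no other of the 57 blocks. CATATG, which has the form of an E-box (CANNTG, the core bound by basic helix-loop-helix factors), occurred in intergenic motif 1 alone, while the E-box form occurred in 3 blocks. GCTGCT occurred in footprint motifs 1 and 2 and in 5 blocks in all. A word match is a description of letters and not of a bound factor.

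The counts that selected the motifs are the authors' and are given as description only. Footprint motif 4 was found in 99 embryo sequences and 18 negative sequences, footprint motif 3 in 76 and 4, footprint motif 1 in 48 and 2, and footprint motif 2 in 30 and 1. Intergenic motif 7 was found in 62 embryo sequences and 1 negative sequence, and intergenic motif 2 in 64 and 15. Intergenic motifs 1 and 5 each had 26 embryo sequences, motif 3 had 28, motif 4 had 32 and motif 8 had 38, all with 0 negative sequences. Intergenic motif 6 had 42 and 4, and intergenic motif 9 had 40 and 2. In the authors' deposited table the E-values ran from 7.7e-13 for footprint motif 3 to 0.029 for intergenic motifs 1 and 5. Most motifs occurred about once per sequence, but intergenic motif 3 had 65 sites in its 28 sequences, or 2.32 per sequence, and intergenic motif 6 had 58 sites in 42, or 1.38 per sequence.

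**Figure D1:**
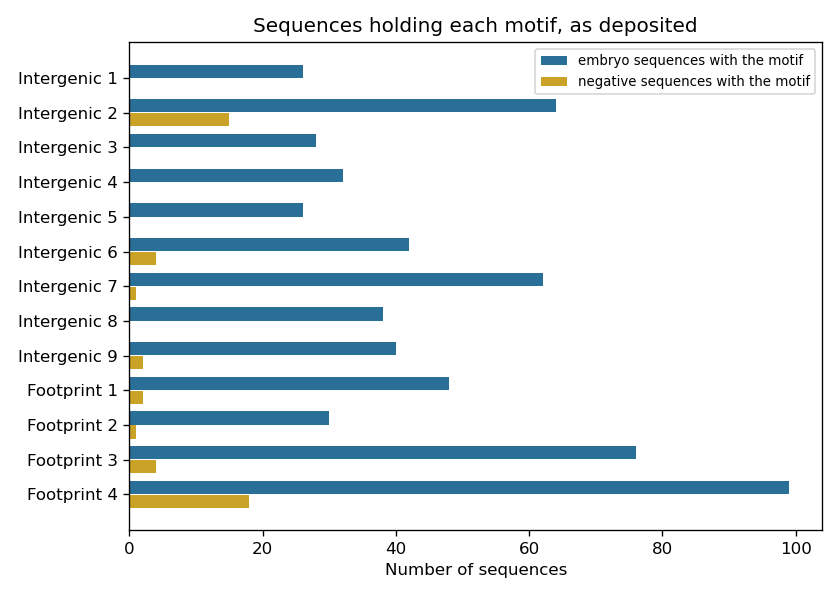
Number of embryo sequences (blue) and negative sequences (yellow) that held each of the 13 motifs, as deposited by the authors. Footprint motif 4 had the most embryo sequences, 99, and footprint motif 4 and intergenic motif 2 had the most negative ones, 18 and 15.

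The authors assigned 488 genes to the 13 motifs, 248 to intergenic motifs and 249 to footprint motifs, out of 2184 genes with any motif. Background was taken over the 11055 genes with at least 1 embryo noncoding DHS, of which 4.41% were assigned to one of the 13 motifs. All 248 genes of the intergenic motifs had an embryo intergenic DHS, beside 74.8% of the 11055 genes. A RefSeq gene table matched 477 of the 488 genes, of which 457 were protein-coding, 13 were pseudogenes and 5 were microRNAs. Most genes belonged to a single motif: 439 had 1, 49 had 2 or more, and 10 had 3 or more. The most motifs on a gene was 4, reached by nhr-196, a nuclear hormone receptor gene, and by Y40H4A.2, both on intergenic motifs 1, 2, 5 and 9.

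Intergenic motifs 1, 2 and 5 shared their genes. Of the 78 pairs among the 13 motifs, 23 shared a gene and 3 shared 10 or more, and those 3 were the pairs of this trio. Motifs 1 and 5 shared 13 genes (68.4% of the 19 of motif 1 and 72.2% of the 18 of motif 5). Motifs 1 and 2 shared 12 (63.2% and 15.6% of the 77 of motif 2), and motifs 2 and 5 shared 11 (14.3% and 61.1%). The matrices themselves were unlike: the mean Pearson correlation of aligned columns at the best alignment was 0.47 for motifs 1 and 5, 0.58 for motifs 1 and 2, and 0.51 for motifs 2 and 5. The 7 genes on all 3 motifs were nhr-196, gst-35 (a glutathione S-transferase), srw-90 (a chemoreceptor), F52H2.3, F56A6.5, Y40H4A.2 and Y82E9BL.18. Where a gene has a single intergenic embryo DHS, the motif would lie in it if the motif gene table rests on the deposited assignment of DHS to genes. By that reading 5 of the 6 DHS so located for motif 1 were also among the 7 located for motif 5. One of them lay 696 bp from gst-35 on chromosome II, 15186081 to 15186230 (ce10), and had an embryo score of 172. The reading is an assumption that could not be checked. Motif 2 had 77 genes for 64 embryo sequences, and the 279 DHS assignments of its genes fell on 279 distinct DHS. Its gene list thus reaches beyond the counted sequences, and a located DHS need not be one of them.

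**Figure D2:**
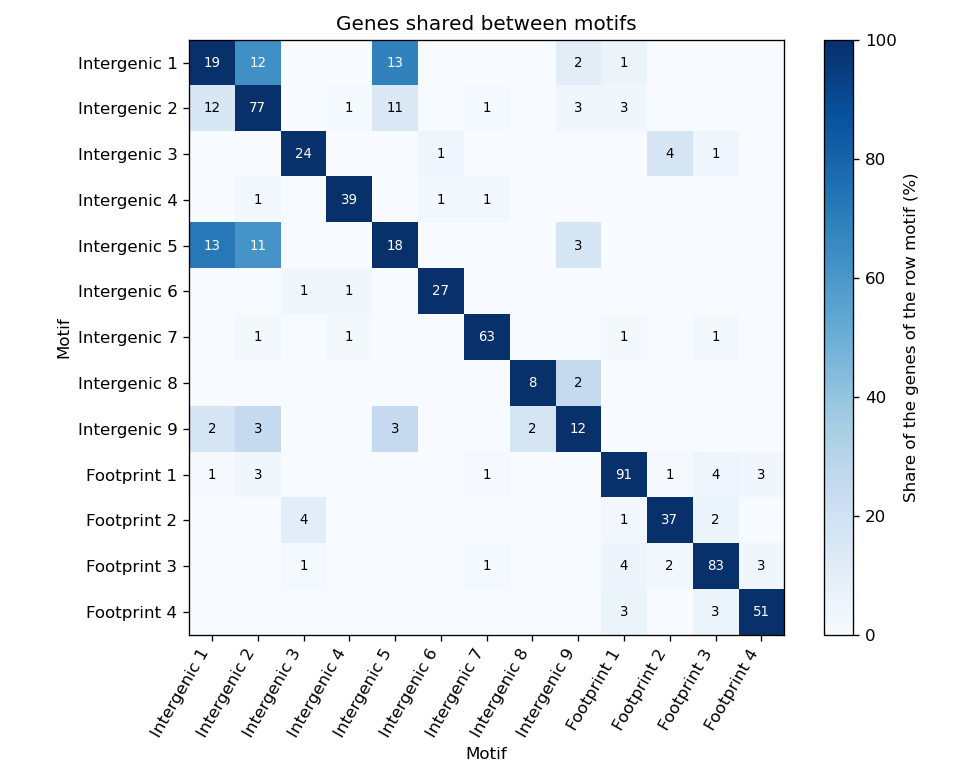
Genes shared by each pair of motifs. Numbers are shared genes, the diagonal is the number of genes of each motif, and the shade is the share (%) of the genes of the motif in the row. The darkest off-diagonal cells are those in the rows of intergenic motifs 1 and 5, which shared 61.1% to 72.2% of their genes with each other and with intergenic motif 2.

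Several motifs resembled motifs of other sets. Intergenic motif 7 shared 41 genes with motif 16 of the noncoding set (65.1% of its 63 genes and 20.6% of 199), with a matrix correlation of 0.92 over 10 columns on the opposite strand. Footprint motif 2 shared 23 genes with noncoding motif 26 (62.2% of its 37 and 57.5% of 40), with a correlation of 1.00 over 9 columns. Intergenic DHS are part of the noncoding DHS, and the footprints come from the same embryo data, so such sharing is no independent observation. A like matrix did not always bring the same genes. Intergenic motif 7 matched intron motif 6 with a correlation of 1.00 over 10 columns and shared 0 genes with it. The intergenic and intron sets name different classes of DHS, so their gene lists may differ for that reason alone. Within the intergenic set, motifs 2 and 8 matched with 0.98 over 7 columns and shared 0 genes.

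The genes of some motifs lay close together on a chromosome. For intergenic motif 4, 27 of 39 genes (69.2%) lay on chromosome II, which holds 17.9% of the 11055 background genes. For intergenic motif 3, 14 of 24 (58.3%) lay on chromosome I, which holds 14.9%. For footprint motif 2, 20 of 37 (54.1%) lay on chromosome V, which holds 19.7%, and 9 of its genes carried the name of 1 clone, Y39B6A. Of the genes of footprint motif 2, 21 of 37 had another gene of the same motif within 50 kb, as had 12 of 24 for intergenic motif 3 and 16 of 39 for intergenic motif 4. None of the 19 genes of intergenic motif 1 and 2 of the 51 genes of footprint motif 4 had one. The distance was taken between any embryo noncoding DHS of the 2 genes, so genes with many or distant DHS meet the limit more easily. Longer gene lists do so too, and no like share was computed over background genes. Neighbouring genes can share a DHS or a duplicated sequence, so the genes of the clustered motifs are not independent of one another.

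Open chromatin at the genes of most motifs was found in L1 arrest as well. Of the 951 embryo noncoding DHS of the intergenic motif genes, 591 (62.1%, exact 95% binomial interval 59.0 to 65.2) overlapped an L1 DHS, beside 54.3% of all embryo noncoding DHS and 58.2% of the intergenic ones. Of the 1183 DHS of the footprint motif genes, 741 (62.6%, 59.8 to 65.4) did so. The intervals cover counting error only, and DHS of 1 gene are not independent. These are all noncoding DHS of the assigned genes, and which of them hold a motif is not known. Intergenic motif 7, for example, was found in 62 embryo sequences, while its genes had 192 DHS. The shares describe the genes of a motif and not its sites. The highest shares belonged to intergenic motif 5 (40 of 45 DHS, 88.9%), intergenic motif 9 (64 of 74, 86.5%) and intergenic motif 1 (45 of 53, 84.9%). Motifs 1 and 5 share 13 genes, so their DHS are partly the same. The lowest was that of intergenic motif 7 (54.2% of 192), next to the background. At the level of genes, 222 of the 248 intergenic motif genes (89.5%) and 241 of the 249 footprint motif genes (96.8%) had an L1 noncoding DHS, beside 70.8% of the 11055 genes and 75.2% of those with an intergenic DHS.

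The number of DHS per gene moves with that share. The median number of embryo noncoding DHS per gene was 2 over all genes, 2 to 8.5 over the 9 intergenic motifs and 3 or 4 over the footprint motifs. Among background genes with 1 embryo DHS, 53% had an L1 DHS, rising to 98.4% among those with 5 or more. Among genes with 1 embryo DHS, 37 of 46 intergenic motif genes (80.4%, exact 95% interval 66.1 to 90.6) and 47 of 50 footprint motif genes (94.0%, 83.5 to 98.7) had an L1 DHS. Among genes with 3 or 4 embryo DHS, 67 of 74 intergenic motif genes (90.5%) had one, the same as the background share of 90.5%, and all 57 footprint motif genes had one (100%, 93.7 to 100).

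**Figure D3:**
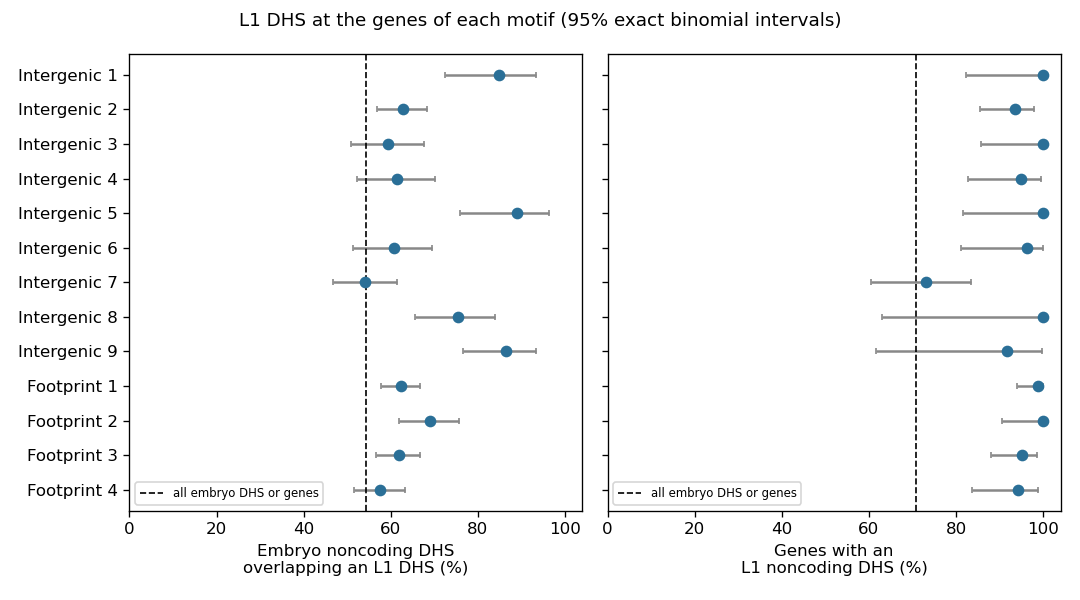
Left, share (%) of all embryo noncoding DHS of the genes of each motif, with or without the motif in them, that overlapped an L1 DHS. Right, share (%) of the genes with an L1 noncoding DHS. Bars are exact 95% binomial intervals and dashed lines the shares over all embryo DHS (54.3%) or genes (70.8%). Intergenic motif 7 lies on both lines, and intergenic motifs 1, 5 and 9 lie farthest right on the left-hand plot.

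At DHS located by the assumption given above, intergenic motif 7 had a lower share than motifs 1 to 6. The grouping was made after the values were seen and was not tested. Over genes with a single intergenic embryo DHS, 40 of the 45 distinct DHS of motifs 1 to 6 overlapped an L1 DHS (88.9%, exact 95% interval 75.9 to 96.3). For motif 7 the count was 8 of 20 (40%, 19.1 to 63.9), beside 56.3% of all 4872 such DHS. DHS of higher score overlapped L1 more often in general. By quartile of the embryo score, from low to high, the background shares were 16.7%, 36.3%, 76.8% and 95.2%. Below the median score of 187, 14 of the 17 DHS of motifs 1 to 6 overlapped an L1 DHS (82.4%, 56.6 to 96.2), beside 3 of 15 of motif 7 (20%, 4.33 to 48.1) and 26.5% of the background. These intervals are no test of the grouping, since it was made after the values were seen. The DHS of neighbouring genes may also not be independent. Above the median, 26 of 28 and 5 of 5 overlapped, beside 86% of the background.

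**Figure D4:**
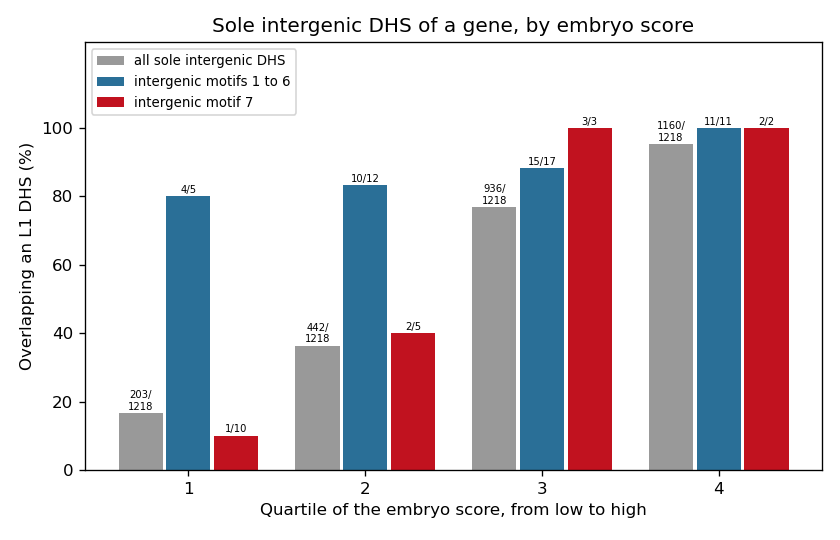
Share (%) of embryo intergenic DHS that overlapped an L1 DHS, for genes with 1 intergenic embryo DHS, by quartile of the embryo score. Numbers are DHS overlapping of all DHS in the group. In the lowest quartile 4 of 5 DHS of intergenic motifs 1 to 6 (blue), 1 of 10 of intergenic motif 7 (red) and 16.7% of the background (grey) overlapped.

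Intergenic motif 2 had the most genes of the intergenic set, 77, with 279 embryo and 205 L1 noncoding DHS. Among its genes with a symbol, those with most DHS were unc-13, which primes synaptic vesicles for release (16 embryo and 9 L1 DHS), the cell junction gene afd-1 (13 and 9) and the calcium pump gene mca-3 (10 and 6). The homeobox gene ceh-36, needed in chemosensory neurons, had 4 and 4. The authors' deposited anatomy table gave head neurons as enriched for this motif, at 0.00907 (the fraction of hits with a like or stronger result). Its leading term in the authors' deposited GO table, cellular process, held 38 of the 77 genes.

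Intergenic motif 3, the repeated word of chromosome I, was assigned to hmr-1, the cadherin of epidermal junctions, which had 28 embryo and 13 L1 DHS. The acyltransferase gene oac-1 had 11 and 7, and ndx-8, a Nudix hydrolase, had 7 and 3. Seam cell (0.04342), excretory cell (0.03024) and spermatheca (0.01338) were enriched in the authors' deposited anatomy table. Dauer entry was a leading term in the authors' deposited GO table, with 2 genes of the 19 in that term and p = 0.000785.

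Intergenic motif 4 was assigned mainly to genes of chromosome II, among them the cyclin-dependent kinase inhibitor cki-1 (9 embryo and 5 L1 DHS), the cyclic AMP phosphodiesterase pde-4 (17 and 11) and 4 of the 6 F-box B genes assigned to any of the 13 motifs. F-box B genes form a large nematode family of substrate adaptors for protein degradation, and 72 of them had an embryo noncoding DHS. Of its 12 located DHS, 11 overlapped an L1 DHS. Those L1 DHS had deposited scores of 245 to 512 with a median of 394, beside a median of 214 over all L1 noncoding DHS. The comparison is unlike, since the 214 also covers L1 DHS that overlap no embryo DHS. Over the located DHS of intergenic motifs 1 to 3 and 5 to 7, the like medians ran from 182 (motif 7) to 664 (motif 6). Head neurons (0.01914), tail neurons (0.01995) and coelomocyte (0.04219) were enriched in the authors' deposited anatomy table.

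The few located DHS of intergenic motif 6 had high scores. These 6 DHS had embryo scores of 200 to 2256 with a median of 635, beside 187 over all such DHS. Over all 87 intergenic DHS of its genes the median was 215, beside 192 over all embryo intergenic DHS. The DHS of nhr-97, a nuclear hormone receptor gene, on chromosome IV, 9764801 to 9764950, had the highest. That gene was chosen after its value was seen. The gap junction gene unc-9 had 11 embryo and 5 L1 DHS. Ion transport held 6 of the 27 genes, with p = 0.000333 in the authors' deposited GO table.

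Intergenic motif 7, the most GC-rich of the intergenic set, had 63 genes, of which 46 (73%, exact 95% interval 60.3 to 83.4) had an L1 DHS, beside 70.8% of all genes. Its 17 genes without one included hda-1 (a class I histone deacetylase), orc-5 (a subunit of the origin recognition complex), rpl-6 (a ribosomal protein), cbd-1 (an eggshell protein), fat-1 (a fatty acid desaturase) and gnrr-2 (a peptide hormone receptor). These 6 are the members of the 17 with a gene symbol, and they were singled out after the values were seen. The located DHS of hda-1 was at chromosome V, 14528101 to 14528250, 688 bp from the gene, with an embryo score of 140. That of orc-5 was at chromosome IV, 10731321 to 10731470, with a score of 123. The 12 located DHS without an L1 overlap had embryo scores of 123 to 165, and the 8 with one had scores of 139 to 772, so the ranges overlapped from 139 to 165. At the upper end were str-15, a chemoreceptor gene, at chromosome V, 16456221 to 16456370 (score 772), and tbx-31, a T-box factor gene, at chromosome X, 1670061 to 1670210 (score 713). Both DHS overlapped an L1 DHS. A further T-box gene, tbx-32, also had this motif, and with tbx-2 of footprint motif 4 they made 3 of the 12 T-box genes with an embryo noncoding DHS (25%, beside 4.41% of all genes).

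By the rule for named genes, frpr-19, a predicted neuropeptide receptor gene, had 10 embryo and 7 L1 DHS for intergenic motif 7. The immunoglobulin-domain gene zig-7 had 8 and 1, and rnr-1, the large subunit of ribonucleotide reductase, had 6 and 2. The authors' deposited GO table listed biosynthetic process (23 of the 63 genes), transport (26) and reproduction (27) among the leading terms, each with a p listed as 0. All 50 listed terms had a p of at most 4e-06, and 50 was also the largest number of terms listed for any motif. Pharyngeal muscle cell was enriched at 0.00616 in the authors' deposited anatomy table.

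Intergenic motifs 8 and 9 had the fewest genes, 8 and 12, for 38 and 40 embryo sequences. Both included Y73B6A.1 and Y73B6A.3, 2 genes of chromosome IV, and this locus was singled out after its values were seen. The RefSeq gene table placed 1 ncRNA, 3 piRNA and 2 pseudogene entries between the 2 genes. The assigned DHS lay up to 31747 bp from Y73B6A.1 and up to 34478 bp from Y73B6A.3. The embryo intergenic DHS assigned to the 2 genes ran from 6669241 to 6732630 on chromosome IV (ce10), a span of 63.4 kb. The span held 40 embryo noncoding DHS, or 6.31 per 10 kb, beside 2.30 over the whole chromosome. It held 67 L1 noncoding DHS, or 10.6 per 10 kb, beside 1.45. Of the 40 embryo DHS, 38 (95%, exact 95% interval 83.1 to 99.4) overlapped an L1 DHS, beside 54.3% of all embryo noncoding DHS. All 40 held a footprint, beside 82% of all embryo noncoding DHS. The authors listed 31 of the 67 L1 DHS (46.3%) as arrest-associated, beside 9.26% of the L1 DHS assigned to genes with an embryo DHS. Within the L1 list the scores of the locus were high, with a median of 371 and a range of 154 to 1016, beside 214 over all L1 noncoding DHS. Within the embryo list they were not, with a median of 175 and a range of 128 to 412, beside 187.

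**Figure D5:**
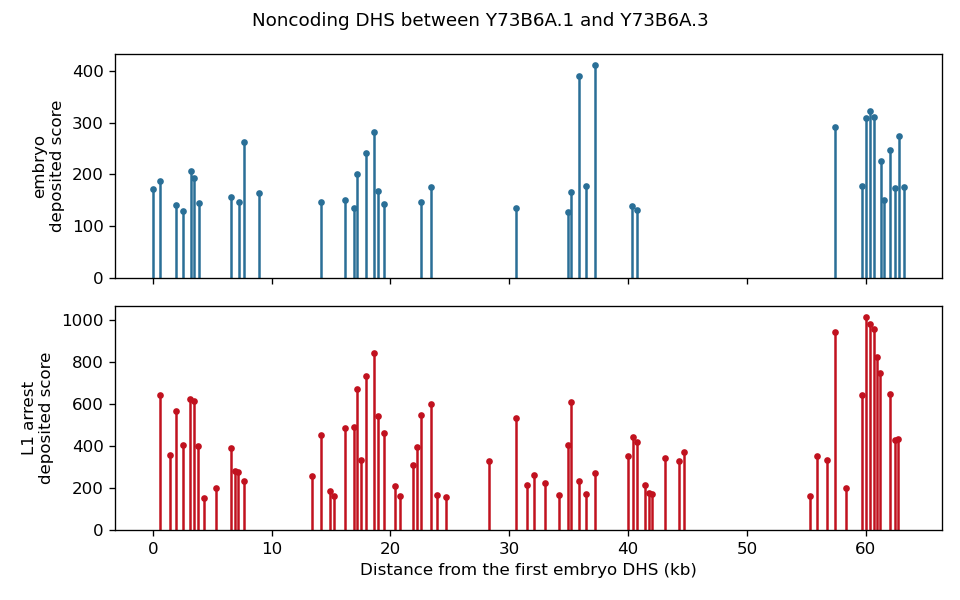
Deposited scores of the noncoding DHS between Y73B6A.1 and Y73B6A.3 against the distance (kb) from the first embryo DHS, for the embryo (top, 40 DHS) and L1 arrest (bottom, 67 DHS) lists. The 2 score axes come from separate lists and are not on a shared scale. The L1 list is denser, and its highest scores lie near 60 kb.

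These 2 genes carried much of what motifs 8 and 9 showed. They held 41 of the 94 embryo DHS (43.6%) and 74 of the 106 L1 DHS (69.8%) of the motif 8 genes, of which 1 embryo DHS and 7 L1 DHS lay outside the span given above. Arrest-associated sites were 34% of the L1 DHS of motif 8 and 39.0% of those of motif 9, and without the 2 genes these shares were 3.13% (1 of 32) and 19.4% (6 of 31). The L1 overlap was 75.5% for motif 8 and 60.4% without them, and 86.5% for motif 9 and 75.8% without them. Among its other genes with a symbol, those with most DHS were mbk-2, a kinase that acts at the passage from oocyte to embryo (23 embryo and 14 L1 DHS), the potassium channel gene irk-1 (7 and 2) and the dopamine receptor gene dop-4 (6 and 4). Intergenic DHS of motif 8 genes lay far from their genes, at a median of 6836 bp, or 2090 bp without the 2 Y73B6A genes, beside 769 bp over all intergenic DHS. Those of motif 9 genes lay at 4926 bp, or 2266 bp without the 2 genes. The medians of intergenic motifs 1 to 7 also exceeded 769 bp, at 1044 to 1769 bp. Motif 9 genes included dmd-3, which acts in male tail shaping (4 and 4), and gem-1 (3 and 4). For motif 8 the authors' deposited GO table gave peptidyl-threonine phosphorylation, with 2 of its 8 genes and p = 2.1e-05.

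Some genes had more DHS in L1 arrest than in the embryo, against the general excess of embryo DHS. Over all 11055 genes, 4.16% had more L1 than embryo noncoding DHS. For intergenic motif 9 it was 5 of 12 genes (3 of 10 without the 2 Y73B6A genes). For intergenic motif 8 it was 2 of 8 (0 of 6 without them). The count was 5 of 18 for intergenic motif 5 and 4 of 19 for intergenic motif 1. It was 3 of 63 for intergenic motif 7 and 1 of 39 for intergenic motif 4. Intergenic motifs 2, 3 and 6 had 10 of 77, 2 of 24 and 3 of 27. Footprint motifs 1 to 4 had 8 of 91, 4 of 37, 4 of 83 and 5 of 51. With all genes kept, only intergenic motif 4 had a share below the 4.16% of all genes. The counts are not independent, since F36D3.8, F52H2.3 and Y40H4A.2 were counted for both intergenic motifs 1 and 5. Y40H4A.2 was also counted for intergenic motifs 2 and 9. The nuclear hormone receptor gene nhr-52, on intergenic motifs 2, 5 and 9, had 3 embryo and 4 L1 DHS, of which 2 were arrest-associated. The microRNA gene mir-4938, on footprint motifs 1 and 2, had 1 and 4, of which 3 were arrest-associated.

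The DHS of footprint motif genes had median scores above the background. Of the DHS of their genes, 88.1% held a footprint, beside 88.4% for the intergenic motif genes and 82% of all embryo noncoding DHS. The footprint motif set was chosen on footprints, so its own share supports nothing. The median score was 304 for the 181 DHS of footprint motif 2 and between 213 and 222 for the other 3, beside 187 over all. Higher scores go with more L1 overlap, and their part in the L1 shares of these motifs was not tested.

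Footprint motif 1 had 91 genes, the most of the 13 motifs. They included ptb-1, an RNA-binding splicing regulator (21 embryo and 11 L1 DHS), and axon guidance genes, the Robo receptor sax-3 (15 and 10), the Eph receptor vab-1 (15 and 8) and the adhesion molecule sax-7 (13 and 9). The even-skipped homologue vab-7 had 9 and 6. Leading terms in the authors' deposited GO table were broad, such as primary metabolic process with 40 of the 91 genes.

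Footprint motif 2, whose genes cluster on chromosome V, included emb-4 (14 embryo and 12 L1 DHS), bed-1 (9 and 8) and mdt-17, a Mediator subunit (6 and 6). The Ras family gene ras-1 had 10 embryo DHS and 1 in L1, and the Pax6 homologue vab-3 had 9 and 3. All 37 genes had an L1 DHS. Heterocycle metabolic process held 11 genes, with p = 0.000516 in the authors' deposited GO table.

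Footprint motif 3 was assigned to 83 genes, among them the nuclear hormone receptor gene nhr-27 (28 embryo and 13 L1 DHS), the LIM domain gene lim-9 (15 and 9) and the Ror receptor kinase cam-1 (12 and 5). The beta-catenin gene sys-1 had 1 and 1. It was the only footprint motif with tissues in the authors' deposited anatomy table, which gave pharynx (0.00894), excretory cell (0.01586) and intestine (0.01603) as enriched.

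Footprint motif 4, the most GC-rich of the 13, also included nhr-27, with the Ras GTPase activator gap-2 (20 embryo and 15 L1 DHS), the splicing regulator mbl-1 (20 and 12), the ETS factor ast-1 (10 and 4) and the Wnt ligand lin-44 (6 and 3). Embryo development ending in birth or egg hatching led its terms in the authors' deposited GO table, with 23 of the 51 genes and p = 6e-06.

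Lists of known regulators and tissue markers were set beside the motif genes. Of 33 neuron identity factors with an embryo DHS, 6 had one of the 13 motifs (18.2%: ast-1, ceh-36, hlh-2, ttx-1, vab-3 and vab-7), beside 4.41% of all genes, and 5 of the 6 were on footprint motifs. Of the Wnt pathway list 3 of 23 had one (13%), and of the axon guidance list 3 of 46 (6.52%). The pan-neuronal list had 1 of 22, the pharynx list 1 of 14 (tbx-2), the intestine list 1 of 15 (ifp-1, an intermediate filament gene, on intergenic motif 2), the epidermis list 1 of 21, the early lineage list 1 of 21 and the germline list 1 of 15 (spo-11, which makes meiotic DNA breaks). Of 26 body wall muscle genes and 6 Hox genes, 0 had one. Over families, 11 of 144 nuclear hormone receptor genes (7.64%), 6 of 72 F-box B genes (8.33%), 5 of 63 microRNA genes (7.94%), 4 of 99 C-type lectin genes (4.04%), 10 of 362 chemoreceptor genes (2.76%) and 1 of 65 collagen genes (1.54%) had a motif. Of 5 zig genes, 1 had one. The 6 neuron identity factors had 3 to 10 embryo noncoding DHS each, beside a median of 2 over all genes. The shares were not matched for the number of DHS per gene, and its part in them was not tested. No test was run on these counts.

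Across the 13 motifs the authors' deposited tables held 341 GO terms and 11 tissues, and 5 motifs had a tissue. Of the 341 terms, 22 rested on 1 gene of the motif, spread over 5 motifs, and 9 of these were among the 10 terms of intergenic motif 1.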

How the data were processed

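DNase-seq libraries came from 4 embryo and 5 L1 arrest replicates with reads of 50 or 76 bp, per the labels. FastQC, Bowtie 1.0.0 and SAMtools are named in the submitters' processing notes. The authors called DHS with HOTSPOT version 3 in 150 bp windows, kept those at an IDR level of 0.1, removed repeats and merged each stage on ce10, and called footprints of 6 to 40 bp with DNase2TF at an FDR of 0.05, per the series design text. The DHS signal and the footprint score are as deposited by the authors, and how they were scaled is not stated. The depth of each library is not used here. Motifs are deposited in MEME version 4 text, with no statement of the motif finder or of how negative sequences were made. Gene counts and p-values per GO term are as deposited by the authors, with no adjustment stated, and the anatomy fraction of hits is as named per the file headers.

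Overlaps (at least 1 bp), shares with exact 95% Clopper-Pearson intervals and matrix alignments (at least 5 columns, either strand) were computed in Python 3.11.15 with numpy 2.4.6 and scipy 1.17.1, and the figures were drawn with matplotlib 3.10.9. The overlap and alignment steps were tested on simulated data. With 1 merged list per stage and motifs chosen on these data, no test was run. DHS were assigned to genes by the authors, and 0 columns of other samples were met. Scores were compared only within a list. Named genes were, among those with a symbol, the 3 with most embryo noncoding DHS per motif, the 10 on most motifs and up to 4 of each of 11 lists, with exceptions said to be chosen after their values were seen. The motifs, lists and words were chosen with earlier results of these data known. Gene types come from RefSeq on WBcel235, used for names and neighbours only. Motif letters beyond short words and the sequences of sites are not printed, since no genome of the build of the files was used here.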

Additional observations from a re-analysis of the deposited data

How the results depend on the processing

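Limits and alternatives concern shares, not tests. The L1 overlap of 62.1% for intergenic motif genes became 85.5% over DHS above the median score. It became 65.5% over intergenic DHS at least 300 bp from the gene, with all other DHS left out. That of 62.6% for footprint motif genes became 85.5% and 66.9%, and the background of 54.3% became 84.2% and 60.01%, or 52.2% when at least 50% of the embryo DHS had to be covered. Above the median score the motif genes were thus near the background. With at least 2 L1 DHS required, the gene shares of 89.5%, 96.8% and 70.8% (intergenic, footprint and all genes) became 62.9%, 68.7% and 33%, and the background over genes with an intergenic DHS was 75.2%. Pairs of like matrices (a correlation of at least 0.9, at least 1 of the pair among the 13 motifs) numbered 14, 8 with at least 6 aligned columns and 56 with a Euclidean distance of at most 0.3. Tissues numbered 11, and 3 below 0.01. The other 20 recomputed values moved by less than their interval, or by less than 1.5 times for counts. Leaving out Y73B6A.1 and Y73B6A.3, chosen after seeing the data, gave 60.7% L1 overlap and 89.4% of genes for the intergenic motifs. No paired analysis was possible because each stage has 1 merged list and the replicate letters of the stages differ. Leaving out replicates could not be run for the same reason.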
